A study of Mus musculus with 15 samples.

Results

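The genes described here are 10 transcription factors of the pancreatic beta cell, Pdx1, Mafa, Nkx6-1, Nkx2-2, Neurod1, Isl1, Pax6, Foxa2, Rfx6 and Glis3. They were taken by name from the 48709 genes of the count table, and all 10 were found. Each had enough reads to be tested, as did 16554 genes of the table in all. RNA was measured in pancreatic islets of NOD females, a mouse strain in which immune cells enter the islets and diabetes develops spontaneously. There were 5 age groups, 4, 6, 8, 10 and 12 weeks, with 3 mice in each. All groups shared the NOD genotype, no agent was given, and no strain without insulitis was included, so age and the progress of infiltration cannot be told apart. The pancreas was digested with collagenase and islets were collected from a density gradient by hand, and each library therefore held endocrine cells together with any cells attached to them.

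Beta cells make insulin in response to glucose, and their identity is held by a small set of DNA-binding proteins that act on each other's genes and on the genes of insulin production. Pdx1, Neurod1 and Mafa are classical activators that bind the insulin promoter. Most of the 10, Pdx1 and Neurod1 among them, also act earlier, in the formation of the pancreas or of its endocrine cells. Several of them are not restricted to beta cells: Nkx2-2, Neurod1, Isl1, Pax6, Foxa2 and Rfx6 are also used by alpha cells, which make glucagon.

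All 10 factors were lower in the islets of 12-week-old than of 4-week-old mice, at 49.7% (Nkx2-2) to 64.0% (Glis3) of the 4-week mean. When values were set against 12 granule genes of endocrine cells, the differences were small, and 7 of them had a positive sign. In that scaling the changes of the 10 factors lay between -0.12 and 0.25 on the log2 scale. The intervals of all but Glis3 included 0. Glis3 was called higher, as were 81.8% of all genes in that scaling. The libraries held 25407492 to 41616275 counts each, of which the 10 factors took 32221 to 87263. The smallest count of any factor in any mouse was 1140 (Foxa2) and the largest was 23722 (Nkx6-1). The floor of 3 counts corresponded to 0.0721 to 0.118 CPM. CPM are counts scaled to library size after TMM normalization, which sets libraries so that the bulk of genes does not shift. Labels name the mice only by age and replicate, and they give no sequencing batch or date.

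Members occupied separate loci on 6 chromosomes, given here on GRCm38 as the table's regions. Pdx1 lay at chr5:147269959-147275848 on the plus strand and Nkx6-1 on the minus strand of the same chromosome at chr5:101658139-101664996. Chromosome 2 held 4 members, Neurod1 at chr2:79452521-79456751 (minus), Pax6 at chr2:105668900-105697364 (plus), Nkx2-2 at chr2:147177546-147194243 (minus) and Foxa2 at chr2:148042877-148046969 (minus). Rfx6 lay at chr10:51677756-51730429 (plus), Isl1 at chr13:116298281-116309689 (minus), Mafa at chr15:75746843-75747922 (minus) and Glis3 at chr19:28258851-28680077 (minus). The region used for Mafa spans 1080 bases, against 2821 in RefSeq, so its reads and its length cover part of the gene.

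Since the 10 factors moved together with age, their promoters were compared in sequence. RefSeq (GRCm38.p6) windows of 250 bases before to 50 after a start site were at hand for 9 members, in 12 windows. Parts upstream of the table's regions are shown for Pdx1 and Neurod1, which act on the insulin gene directly, and for Pax6, which carries a searched motif. Capitals in the Pax6 line mark GGCAAC, the reverse complement of GTTGCC, a half-site of the X-box that RFX proteins such as Rfx6 recognize. The Pdx1 stretch is chr5:147269847-147269958 (plus strand), that of Neurod1 is chr2:79456752-79456886 (minus strand) and that of Pax6 is chr2:105668646-105668895 (plus strand), each written 5′ to 3′.
Pdx1: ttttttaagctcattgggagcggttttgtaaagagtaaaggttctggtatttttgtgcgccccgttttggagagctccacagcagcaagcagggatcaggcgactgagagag
Neurod1: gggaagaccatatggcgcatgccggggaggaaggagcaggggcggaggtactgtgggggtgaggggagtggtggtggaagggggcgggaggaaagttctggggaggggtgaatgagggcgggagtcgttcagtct
Pax6: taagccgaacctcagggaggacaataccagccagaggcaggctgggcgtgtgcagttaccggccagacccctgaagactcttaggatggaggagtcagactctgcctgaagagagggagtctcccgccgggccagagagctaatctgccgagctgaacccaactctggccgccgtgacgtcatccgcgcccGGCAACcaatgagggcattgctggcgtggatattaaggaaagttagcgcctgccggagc

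No sequence feature searched was common to the members. On either strand, the X-box half-site GTTGCC was found in 2 of the 12 windows (Pax6 and Rfx6), against 12.5% of all 32851 promoter windows. The homeodomain motif TAATTA was found in 1 window (Rfx6, 5.29% of all windows), the E-box CAGATG in 1 (Nkx2-2, 17.2%) and the MAF half-site TGCTGAC in 1 (Foxa2, 4.67%). The forkhead motif TGTTTAC was found in 0 of the 12 (3.65% of all windows). Base composition ranged widely, from 42.3% G and C at Rfx6 to 76.3% at Glis3, with a median of 52.7% over all windows. The only windows of Rfx6 (chr10:51685268-51685567) and Nkx2-2 (chr2:147186353-147186652) lie inside the table's regions of these genes. Their motifs and base composition thus belong to internal start sites. The MAF half-site of Foxa2 was not in the stretch upstream of its region either. Of the motifs found, only that of Pax6 lay wholly upstream of the table's region.

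Levels of different genes can be compared only per length, for which the deposited TPM (length-scaled transcript shares) were used. Over the 15 mice Mafa, the late factor of mature beta cells, was the most abundant member at 586 TPM ± 114 (SD). It was followed by Nkx6-1 at 342 ± 62.2, Pdx1 at 163 ± 24.7, Neurod1 at 129 ± 20.5 and Nkx2-2 at 89.8 ± 17.1. Lower in the order stood Foxa2 at 61.2 ± 10.7, Isl1 at 56.3 ± 8.90, Pax6 at 45.1 ± 7.49, Rfx6 at 40.3 ± 7.67 and Glis3 at 16.5 ± 2.27 TPM. This order depends on the gene lengths used, which the deposited values imply to run from 1193 bases (Mafa) to 12919 (Pax6). Before division by length, Pax6 at 4 weeks had a mean of 308 CPM, above Neurod1 (215), Pdx1 (204) and Nkx2-2 (158).

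Each of the 9 neighbouring pairs in that order differed by a two-sided sign-flip permutation test over the mice, 7 of them at the smallest p that these flips can give (6.1e-05). For those 7 pairs the higher gene was higher in all 15 mice. Pax6 exceeded Rfx6 in 14 of 15 mice (permutation p 0.000183). Foxa2 exceeded Isl1 in 11 of 15 mice (permutation p 0.0192), and their means changed places with age: Isl1 was above Foxa2 at 4 weeks (67.1 ± 4.04 against 66.4 ± 3.07 TPM) and at 12 weeks (48.3 ± 2.37 against 46.7 ± 6.29 TPM). At both of those ages the 2 genes differed by less than their SD. All other members kept their place at each of the 5 ages, so the ladder of the factors was the same in the youngest and the oldest islets.

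For the change with age, Pdx1, Neurod1 and Mafa are taken first. Pdx1, which also forms the pancreas in the embryo, measured 206, 198 and 208 CPM in the 3 mice at 4 weeks and 196, 215 and 196 at 6 weeks. It measured 196, 162 and 151 CPM at 8 weeks, 102, 124 and 162 at 10 weeks and 132, 118 and 96.3 at 12 weeks. The mice of 4 and 6 weeks lay within a narrow band, the first 8-week mouse lay in that band as well, and no mouse of 10 or 12 weeks reached it. In the edgeR quasi-likelihood test over all ages, the 12-week mean of Pdx1 was lower by a log2 fold change of -0.82 (SE 0.155, adjusted p 0.00103).

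Neurod1, a helix-loop-helix activator of the insulin gene, measured 206, 225 and 214 CPM at 4 weeks and 194, 194 and 174 at 6 weeks. It measured 202, 182 and 161 CPM at 8 weeks, 117, 106 and 149 at 10 weeks and 110, 124 and 115 at 12 weeks. Its 6 oldest mice all lay below its 9 younger ones. Against 4 weeks, the 12-week mean had a log2 fold change of -0.89 (SE 0.115, adjusted p 0.000228, edgeR).

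Mafa, the maturity factor, had the widest relative spread of the 10 factors among mice of the same age at 4, 6, 8 and 12 weeks. It measured 416, 353 and 352 CPM at 4 weeks, 420, 363 and 283 at 6 weeks and 349, 325 and 228 at 8 weeks. It measured 204, 235 and 314 CPM at 10 weeks and 230, 213 and 152 at 12 weeks. The 4- and 12-week mice were separate, but from 6 to 12 weeks the neighbouring ages overlapped, with a coefficient of variation of 19.3 to 22.5% within each of those ages. Its log2 fold change from 4 to 12 weeks was -0.91 (SE 0.212, adjusted p 0.00342, edgeR), with the largest standard error of the 10 factors.

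Nkx6-1, which sets beta against alpha cell fate, had the same mean at 4 and 8 weeks, 601.5 and 601.4 CPM. It measured 573, 641 and 591 CPM at 4 weeks, 640, 624 and 478 at 6 weeks and 676, 589 and 540 at 8 weeks. It measured 318, 334 and 464 CPM at 10 weeks and 342, 402 and 307 at 12 weeks. All 6 mice of 10 and 12 weeks lay below all 9 younger mice. From 4 to 12 weeks the log2 fold change was -0.78 (SE 0.159, adjusted p 0.00161, edgeR).

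Nkx2-2, a repressor and activator needed for endocrine cells, had the lowest share of its 4-week mean at 12 weeks, 49.7%. It measured 156, 156 and 162 CPM at 4 weeks, 154, 172 and 141 at 6 weeks and 144, 119 and 104 at 8 weeks. It measured 74.7, 89.4 and 113 CPM at 10 weeks and 86.2, 84.2 and 64.9 at 12 weeks. The first 8-week mouse lay within the range of the 6-week mice, the others lay below it, and the third 10-week mouse lay within the range of the 8-week mice. The log2 fold change from 4 to 12 weeks was -1.01 (SE 0.157, adjusted p 0.000431, edgeR).

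Isl1 is a LIM-homeodomain factor of all islet endocrine cell types. It measured 129, 137 and 149 CPM at 4 weeks, 124, 129 and 132 at 6 weeks and 125, 92.8 and 95.2 at 8 weeks. It measured 67.5, 73.9 and 83.2 CPM at 10 weeks and 76.1, 82.4 and 70.1 at 12 weeks. Here the first 8-week mouse stayed with the young mice and the other two lay between young and old. From 4 to 12 weeks Isl1 had a log2 fold change of -0.86 (SE 0.112, adjusted p 0.000236, edgeR).

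Pax6, the paired-homeodomain activator of hormone genes, measured 282, 319 and 323 CPM at 4 weeks, 280, 322 and 310 at 6 weeks and 308, 241 and 247 at 8 weeks. It measured 148, 168 and 237 CPM at 10 weeks and 173, 193 and 151 at 12 weeks. The third 10-week mouse, at 237 CPM, was just under the lowest 8-week mouse. The log2 fold change from 4 to 12 weeks was -0.84 (SE 0.158, adjusted p 0.00106, edgeR).

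Foxa2, a forkhead factor that opens chromatin of endodermal genes, measured 76.2, 82.6 and 86.9 CPM at 4 weeks, 78.5, 84.5 and 83.3 at 6 weeks and 93.6, 70.2 and 69.5 at 8 weeks. It measured 44.3, 51.3 and 63.5 CPM at 10 weeks and 45.2, 51.7 and 35.8 at 12 weeks. Its highest value of all 15 mice was in the first 8-week mouse, and its lowest in the third 12-week mouse. Foxa2 had a log2 fold change of -0.89 from 4 to 12 weeks (SE 0.155, adjusted p 0.000703, edgeR).

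Rfx6, a winged-helix factor of endocrine differentiation, measured 90.8, 97.9 and 89.8 CPM at 4 weeks, 84.5, 107 and 91.9 at 6 weeks and 99.2, 85.8 and 70.4 at 8 weeks. It measured 45.7, 47.9 and 65.8 CPM at 10 weeks and 48.9, 58.1 and 47.7 at 12 weeks. The old and young mice were separate, and the 10- and 12-week mice were intermixed. The log2 fold change from 4 to 12 weeks was -0.85 (SE 0.152, adjusted p 0.000795, edgeR).

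Glis3, a zinc-finger activator of Neurog3 and insulin, measured 83.2, 80.3 and 72.7 CPM at 4 weeks and 91.0, 85.1 and 84.98 at 6 weeks. It measured 71.2, 71.2 and 64.8 CPM at 8 weeks, 44.5, 52.5 and 62.8 at 10 weeks and 44.6, 55.0 and 51.6 at 12 weeks. All 3 mice of 6 weeks were above those of 4 weeks, a difference that did not pass the test (log2 fold change 0.14, adjusted p 0.812, edgeR). From 4 to 12 weeks its log2 fold change was the smallest of the 10 (-0.64, SE 0.111, adjusted p 0.000659, edgeR).

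**Figure D1:**
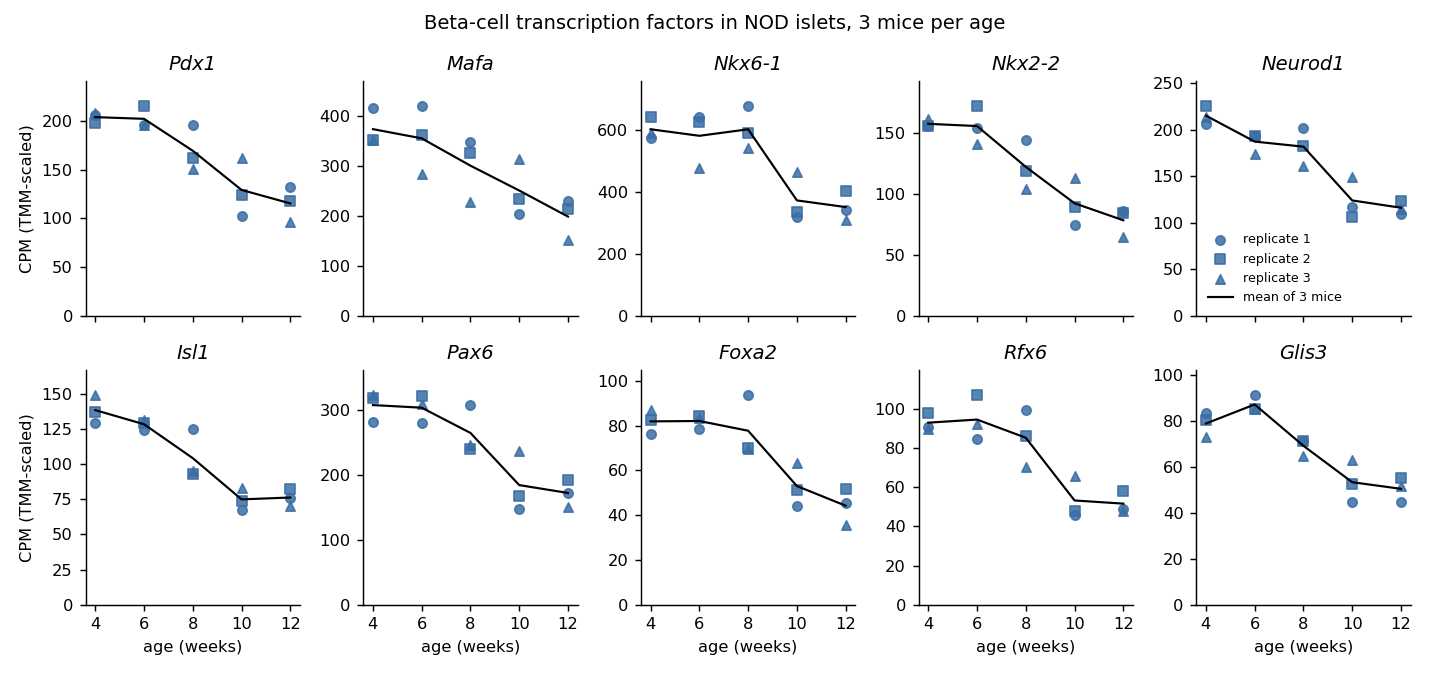
Each panel plots 1 factor, with age in weeks on the horizontal axis and TMM-scaled CPM on the vertical axis, which starts at 0; symbols are the 3 mice of an age by replicate and the line joins their means. In every panel the 12-week mice lie below the 4-week mice under this scaling. Relative to granule genes these differences lie between -0.12 and 0.25 on the log2 scale, and only the Glis3 interval excludes 0. The Nkx6-1 mean is 601.4 CPM at 8 weeks and 372 at 10 weeks.

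The oldest and the youngest mice were compared to ask how far the factors had changed by the end of the series. All 10 passed an adjusted p of 0.05 as lower, where 27.2% of all genes tested were called lower. The median log2 fold change of the 10 was -0.85, against -0.05 over all genes. In log2 CPM their 3 values at 12 weeks did not overlap the 3 at 4 weeks in any of the 10, which was so, in the lower direction, for 33.9% of all genes. On the deposited TPM Glis3 did overlap, with its highest 12-week mouse at 15.73 and its lowest 4-week mouse at 15.68. By the threshold of the study, a fold of 1.5 with an unadjusted p under 0.05, all 10 were lower, and 11% of all genes were. Counted from the largest decrease, Nkx2-2 stood within the first 3.2% of the genes tested and Glis3 within the first 10.7%. With library totals in place of TMM, which moved the median of all genes by 0.25 on the log2 scale, all 10 stayed lower with an adjusted p under 0.05, while the genes called lower in all went from 4501 to 1820. On the deposited TPM, Pdx1 went from 182 ± 10.9 at 4 weeks to 134 ± 13.2 at 12 weeks (mean ± SD of 3 mice), Mafa from 667 ± 91.6 to 459 ± 69.7 and Glis3 from 17.1 ± 1.61 to 14.4 ± 1.94. Each of the 10 factors fell by a smaller share of its 4-week mean on TPM than on TMM-scaled CPM. Between 6 and 10 weeks 9 of the 10 were called lower, against 21.9% of all genes. The exception was Mafa (log2 fold change -0.50, adjusted p 0.0677, edgeR), which was lower by that test without the third 6-week mouse or without the third 10-week mouse, each of which brought the count to 10.

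To place the change in time, each age was compared with the age before it. From 4 to 6 weeks 0 of the 10 factors were called lower by edgeR, 0 had an unadjusted p under 0.05, and the edgeR exact test and DESeq2 also called 0. Of all genes 0.0846% were called lower at that step. From 6 to 8 weeks edgeR again called 0 of 10 and 0% of all genes, as did the exact test and DESeq2 for the factors. At that step 3 factors had an unadjusted p under 0.05: Glis3 (log2 fold change -0.33), Isl1 (-0.30) and Nkx2-2 (-0.35), with adjusted p of 0.188, 0.210 and 0.265 in edgeR. The share of all genes with an unadjusted p under 0.05 at that step was not counted.

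From 8 to 10 weeks 7 of the 10 factors were called lower, against 8.37% of all genes. Nkx6-1 and Rfx6 had the largest changes, with log2 fold changes of -0.69 (SE 0.158, adjusted p 0.0255) and -0.68 (SE 0.151, adjusted p 0.0251). Neurod1 and Foxa2 followed at -0.55 each, Pax6 at -0.52, Isl1 at -0.48 and Glis3 at -0.37. Mafa (-0.26, adjusted p 0.373), Pdx1 (-0.39, adjusted p 0.0873) and Nkx2-2 (-0.40, adjusted p 0.0828) were not called. This count rested on single mice. Without the first or the second mouse of 8 weeks, or the first or second of 10 weeks, it was 0. In each of those fits 0 genes of the whole table were called lower, and all 10 factors kept a negative log2 fold change. Without the second mouse of 4 weeks the count was 4, where 883 of 16894 genes were called lower. From 10 to 12 weeks edgeR called 0 of the 10 factors and 0% of all genes lower, 0 factors had an unadjusted p under 0.05, and the exact test and DESeq2 called 0 factors.

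Whether the step from 8 to 10 weeks exceeded the step from 4 to 6 weeks was tested as a contrast added after the data had been seen. The difference was negative for all 10 factors, from -0.70 (Rfx6) to -0.19 (Mafa) on the log2 scale. None passed the adjusted threshold, with adjusted p from 0.0742 to 0.708 in edgeR, although 7 of the 10 had an unadjusted p under 0.05. Of all 16554 genes tested, 4191 had an unadjusted p under 0.05 for this contrast and 4.35% were called, in either direction.

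**Figure D2:**
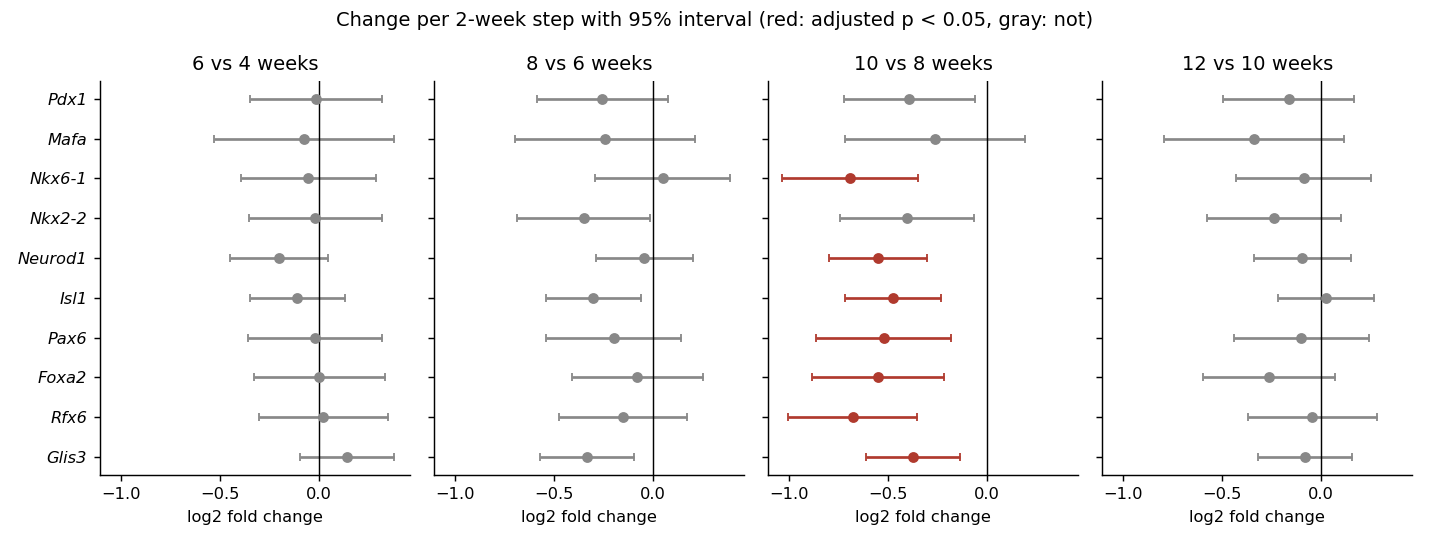
Each panel is 1 step between neighbouring ages, with the log2 fold change of TMM-scaled counts on the horizontal axis; points are the 10 factors, bars are 95% intervals, and red marks an adjusted p under 0.05. Red points, 7 of them, appear at 8 to 10 weeks only. With values relative to granule genes 2 of the 7 stay called at that step, and Mafa is at 0.11 (95% interval -0.21 to 0.43).

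Over the 5 ages together, all 10 factors changed in a joint test, where 56% of all genes did, with adjusted p from 0.000323 (Isl1) to 0.0136 (Mafa) in edgeR. As a straight line over age, all 10 were called lower, against 31.3% of all genes. The slopes ran from -0.10 (Glis3) to -0.14 (Nkx2-2) on the log2 scale per week.

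The cell types in the islets changed over the same weeks. Of 22 leukocyte markers, all were called higher at 12 than at 4 weeks, where 26.3% of all genes were. Their summed level ran from 49.9 to 257 CPM at 4 weeks, 73.6 to 285 at 6 weeks and 173 to 1040 at 8 weeks, then from 1070 to 2490 at 10 weeks and 2080 to 2410 at 12 weeks. No marker of the list was at 0 in all mice of an age. The 7 mesenchymal markers were all called higher in the same comparison, from a summed 304 to 527 CPM at 4 weeks to 1200 to 1910 at 12 weeks. Acinar markers, which come from the enzyme-making cells around the islets, varied between mice of an age (1150 to 9780 CPM at 4 weeks, 2950 to 12200 at 12 weeks), and 0 of 9 were called by edgeR, with 0 at an unadjusted p under 0.05. Among duct markers 2 of 6 were lower and 2 higher, and among endothelial markers 3 of 6 were higher. In RNA from whole islets, fewer beta cells and less RNA of a factor in each beta cell cannot be told apart. The part of these other cells in the change of the factors was not tested beyond the values that follow.

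At each age the mouse with the lowest mean of the factors was the mouse with the highest mean of the leukocyte markers. At 8 weeks the mean log2 CPM of the 10 factors was 7.49, 7.25 and 7.10 in the 3 mice, beside leukocyte means of 1.86, 4.15 and 4.73. At 10 weeks the third mouse, with factors at 7.08, had a leukocyte mean of 4.91, whereas the first and second, at 6.55 and 6.70, had 6.09 and 5.73. At 12 weeks the factors were at 6.68, 6.79 and 6.48 beside leukocyte means of 5.75, 5.68 and 6.03. At 4 weeks the leukocyte mean ran from -0.44 to 2.22 while the factors stayed between 7.48 and 7.52. Both measures come from the same libraries and the same scaling, so they are not independent.

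**Figure D3:**
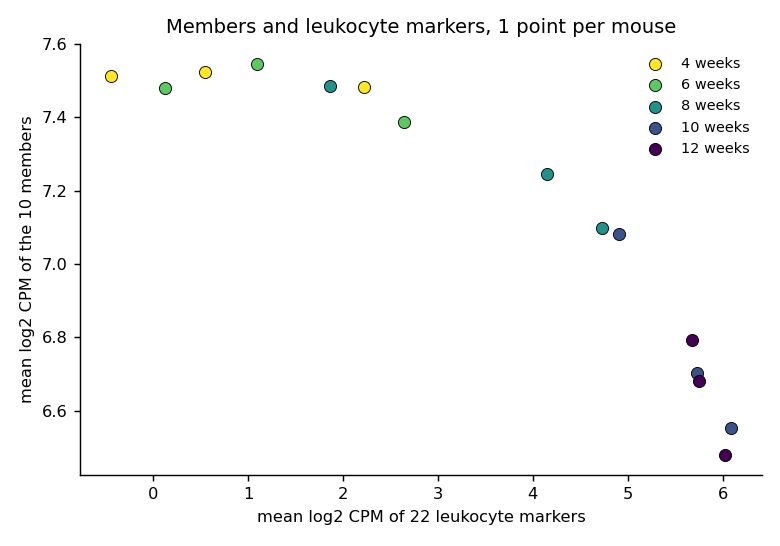
Each point is 1 of the 15 mice, with the mean log2 CPM of 22 leukocyte markers on the horizontal axis, that of the 10 factors on the vertical axis (which does not start at 0) and color for age. The first 8-week mouse, at a leukocyte mean of 1.86, sits with the 4- and 6-week mice, and the third 10-week mouse, at 4.91, sits beside the third 8-week mouse at 4.73.

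The islet label was checked with 12 genes of the hormone granules that islet endocrine cells share, such as Chga, Cpe and Scg2. Their summed level was 29200 to 30600 CPM at 4 weeks and 14500 to 17700 at 12 weeks. From 4 to 12 weeks 11 of the 12 were called lower, against 27.2% of all genes. Their median log2 fold change was -0.92 (that of all genes was -0.05). Cpe, a prohormone carboxypeptidase, changed by -1.12 (adjusted p 0.000226, edgeR), and the granin Chgb was not called (-0.15, adjusted p 0.541).

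When libraries were scaled to these 12 genes instead, so that each value was relative to the endocrine genes, the differences of the factors between 4 and 12 weeks were small. The log2 fold change was 0.06 for Pdx1 (95% interval -0.11 to 0.23), -0.03 for Mafa (-0.36 to 0.29) and 0.01 for Neurod1 (-0.22 to 0.23). For Nkx6-1 it was 0.11 (-0.12 to 0.34), for Nkx2-2 -0.12 (-0.30 to 0.05) and for Isl1 0.03 (-0.15 to 0.22). Pax6 stood at 0.05 (-0.17 to 0.27), Foxa2 at -0.01 (-0.21 to 0.20) and Rfx6 at 0.04 (-0.20 to 0.28). In this scaling 0 of the 10 were called lower, where 0.731% of all genes were, and 1, Glis3, was called higher (0.25, interval 0.02 to 0.48, adjusted p 0.0437), where 81.8% of all genes were. Misses of this kind do not show that the factors kept pace with the granule genes, and the intervals give the changes that the data leave possible.

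In the same scaling, the step from 8 to 10 weeks still had 2 factors called lower, against 0.417% of all genes. These were Nkx6-1 (log2 fold change -0.32, adjusted p 0.0347) and Rfx6 (-0.30, adjusted p 0.0476). Nkx6-1 had stood 0.26 above its 6-week level at 8 weeks in this scaling, which did not pass the test (adjusted p 0.221, edgeR). At 12 against 10 weeks the difference was 0.12 for Nkx6-1 and 0.16 for Rfx6, neither of them called.

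With the mean of the leukocyte markers as a covariate, the log2 fold changes from 4 to 12 weeks were between -0.52 (Glis3) and -0.14 (Nkx6-1). Of the 10 factors 0 were called by edgeR, where 0.0181% of all genes were called lower. An unadjusted p under 0.05 was found for 3 (Neurod1, Isl1 and Glis3), with adjusted p of 0.413, 0.436 and 0.432. The share of all genes under that unadjusted threshold was not counted in this fit. Age accounted for a share of 0.843 of the variance of that covariate, so the fit had little left with which to tell age from leukocyte content.

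**Figure D4:**
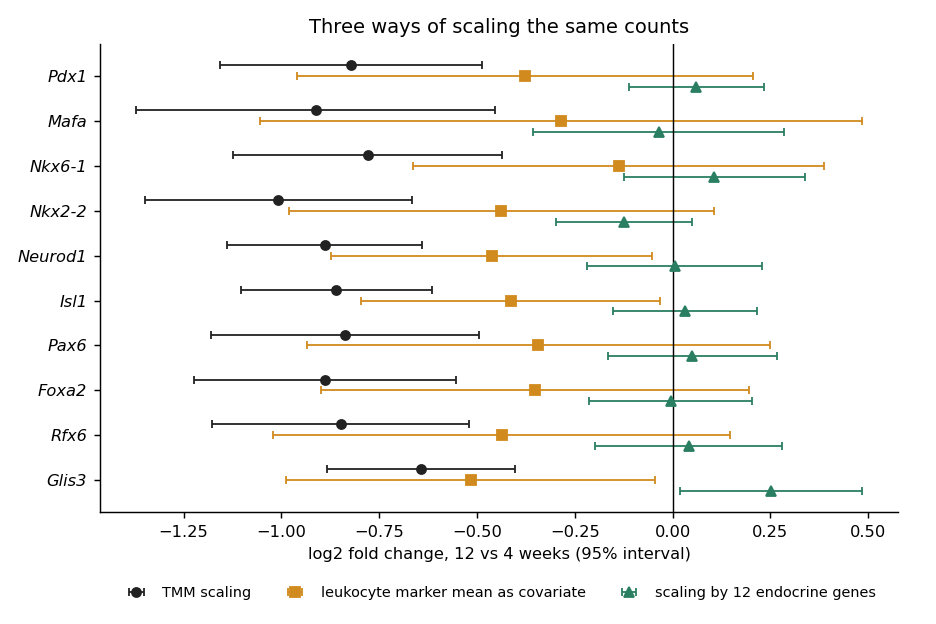
For each factor, the horizontal axis gives the log2 fold change from 4 to 12 weeks with its 95% interval, with TMM scaling (black), with the leukocyte mean as a covariate (orange) and with scaling by 12 endocrine genes (green). All black intervals lie below 0, 7 of 10 orange intervals cross 0, and 7 green points lie above 0, with the Glis3 interval from 0.02 to 0.48.

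The genes that these factors are known to act on were described in the same way. Of 14 targets, 12 were called lower at 12 weeks, against 27.2% of all genes. Their median log2 fold change was -0.84 beside -0.05 for all genes. Iapp (amylin, secreted with insulin) changed by -0.78 (adjusted p 0.000302), Ero1lb (an oxidase for folding proinsulin) by -1.01 (adjusted p 0.000343), Pcsk1 (a prohormone convertase) by -0.92 (adjusted p 0.000621) and Kcnj11 (a subunit of the ATP-sensitive potassium channel) by -0.87 (adjusted p 0.000674), all in edgeR. Glp1r (-0.25, adjusted p 0.182) and Trpm5 (-0.38, adjusted p 0.135) were not called. Relative to the endocrine genes 0 of 14 were called lower and 3 were called higher, Glp1r, Trpm5 and Ucn3, where 81.8% of all genes were called higher.

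Of 20 other transcription factors of islet cells, 17 could be tested, and Pax4, Lmx1a and Nkx6-2 had at most 1, 4 and 14 counts in any mouse. In TMM scaling 12 of the 17 were called lower, 2 were called higher and 3 were not called, where 27.2% of all genes were called lower and 26.3% higher. Etv1 changed by -1.21 (adjusted p 0.000132), the endocrine zinc-finger factor Insm1 by -1.06 (adjusted p 0.000181) and Fev, a serotonergic ETS factor, by -1.16 (adjusted p 0.000424), in edgeR. The higher genes were Bach2, a regulator of lymphocytes that is also found in beta cells (3.18, adjusted p 0.000168), and Foxo1, an insulin-regulated forkhead factor (0.42, adjusted p 0.00294). In the endocrine scaling 2 of the 17 were called lower (Etv1 and Fev) and 8 higher, where 0.731% of all genes were called lower and 81.8% higher.

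Transcription factors of alpha and other non-beta endocrine cells give a comparison within the islet. Of 8, 7 were called lower at 12 weeks, against 27.2% of all genes, with a median log2 fold change of -1.33. Pou3f4 changed by -1.51 (adjusted p 0.000295), Irx2 by -1.46 (adjusted p 0.000128) and Irx1 by -1.25 (adjusted p 0.000257), in edgeR. Hhex, a factor of delta cells, was not called (0.08, adjusted p 0.423). Relative to the 12 endocrine genes, genes still called lower included Irx2, Pou3f4 and Irx1, with log2 fold changes of -0.58, -0.63 and -0.37, and Hhex was called higher (0.98), as were 81.8% of all genes. The difference between these genes and the 10 beta-cell factors was not itself tested.

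**Figure D5:**
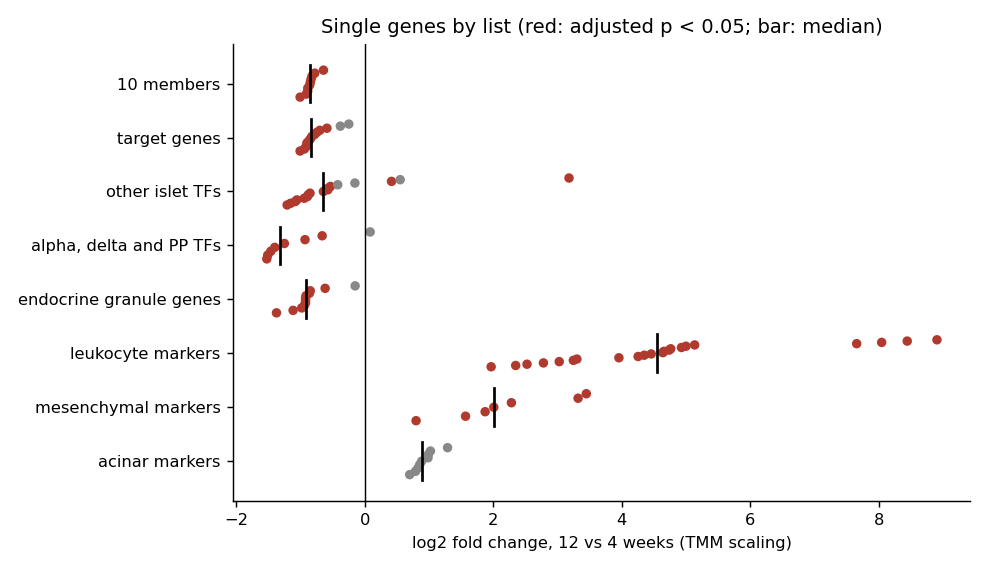
Rows are lists of genes and points are single genes, with the log2 fold change from 4 to 12 weeks in TMM scaling on the horizontal axis; red marks an adjusted p under 0.05, and the bar is the list's median. The 10 beta-cell factors lie between -1.01 and -0.64 in this scaling, and between -0.12 and 0.25 relative to the endocrine genes, while the 22 leukocyte markers lie between 1.97 and 8.91.

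Across the 15 mice the factors varied together. Pearson's r of log2 CPM over the 45 pairs of factors had a median of 0.929, from 0.820 (Mafa with Isl1) to 0.991 (Pdx1 with Nkx2-2). After the age means were subtracted, all 45 remained positive, with a median of 0.750, from 0.364 (Isl1 with Glis3) to 0.965 (Pdx1 with Nkx2-2). These are descriptions only, since all values share their libraries, their scaling and their endocrine content.

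The genes outside the set whose log2 CPM followed a factor most closely over the 15 mice were found for each factor in turn. For Pdx1 they included Rnf128 and Slc2a5 (r 0.989 for both). For Mafa they were Copb2 (0.983), Gps1 and BC022687 (both 0.973), and for Nkx6-1 Rps6ka2 (0.979), Nckap1 and Dcaf6 (both 0.977). Nkx2-2 was followed by Bsg (0.991), Bcl2l2 (0.990) and Mrfap1 (0.988), and Neurod1 by Ppp1cb, Rhobtb3 (both 0.986) and Usp29 (0.985). Isl1 was followed by Maged2 (0.984), Ocrl (0.982) and Map3k15 (0.980), and Pax6 by Pafah1b2 (0.990), 0610040J01Rik (0.989) and Ky (0.988). For Foxa2 the genes were Clstn3 (0.987), Maged1 (0.983) and Yipf6 (0.982), for Rfx6 Scgn (the calcium-binding secretagogin, 0.989), Wls and Neo1 (both 0.987), and for Glis3 Dip2c (0.976), Gdap1l1 (0.975) and Lyrm9 (0.972).

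Some members share their place in the genome with another annotated gene, and the sources used here do not say whether reads were counted by strand. Neurod1 lies wholly inside Cerkl on the same strand, and Cerkl had 12405 counts over all mice beside 71142 for Neurod1. Reads of the overlapping part cannot be told apart between Cerkl and Neurod1. Pdx1 overlaps 2210019I11Rik on the opposite strand (10761 counts beside 71393), and Pax6 overlaps Pax6os1 (2781 beside 107091). For Nkx2-2 and Glis3 the overlapping genes held under 1% of the member's counts.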

How the data were processed

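Islet RNA was enriched for polyadenylated transcripts and sequenced as read pairs; the authors trimmed, aligned and counted reads with CLC Genomics Workbench, at its defaults. The deposited counts are whole reads per gene, not normalized. The deposited RPKM and TPM columns were made by the authors from those counts, per length and depth. The labels name build mm10, and the table's regions match GRCm38. The authors' 15 CPM columns were not used.

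Here, genes kept by filterByExpr (16554 of 48709) were TMM-scaled and fitted in edgeR 4.0.16 (R 4.3.3) with glmQLFit, 1 mean per age over 15 mice. Contrasts were tested with glmQLFTest, two-sided, with Benjamini-Hochberg adjustment across the table and a threshold of 0.05. Log2 CPM used a prior count of 2. Levels were compared on TPM by sign flips (32768), with RPKM as the alternative. Alternatives were DESeq2 1.42.0, its size factors, library totals, scaling by endocrine genes, no filter, an exact test, 2 ages alone, a leukocyte covariate, the replicate block, the study's threshold and each mouse left out. The contrast between steps was added after seeing the data. Per the study, the 3 samples of an age are 3 mice; litters are not given.

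The members and lists were chosen with earlier results of these data known. Named genes are the 10 members, up to 4 list genes each by smallest adjusted p at 12 against 4 weeks and any that moved the other way, features overlapping a member, and the 3 most correlated genes per member. Some list genes are named beyond this rule, after their values were seen. Some genes that fall under it are not reported here. Ero1b was matched as Ero1lb by its RefSeq synonym, and 1 of 23 leukocyte markers, Itgam, was not matched. On simulated counts for 12 against 4 weeks (16554 genes, 200 changed by 2-fold), 79% were recovered, and 2.47% of calls were false. Figures were drawn with matplotlib 3.10.9 in Python 3.11.15.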

Additional observations from a re-analysis of the deposited data

How the results depend on the processing

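The 12 against 4 week count of 10 factors called lower was also 10 with DESeq2, its size factors, library totals, no filter, the exact test, the 2 ages alone, the replicate block, the study's threshold and each mouse left out. It was 0 with endocrine scaling and 0 with the leukocyte covariate. Endocrine scaling gave 7 factors a positive sign: Pdx1 (0.061), Nkx6-1 (0.11), Neurod1 (0.0051), Isl1 (0.032), Pax6 (0.051), Rfx6 (0.041) and Glis3 (0.25). Of these only Glis3 had an interval that excluded 0. With those same 2 settings the 10 against 6 week count went from 9 to 0 and 0, the count of any change from 10 to 0 and 0, and the trend from 10 to 1 and 0. With endocrine scaling 0.658% of all genes were called lower at 10 against 6 weeks, 80.1% for any change and 0.9% for a falling trend. With the leukocyte covariate these shares were 0%, 0.495% and 0%. The 10 against 8 week count of 7 was the least stable. It was 2 with endocrine scaling (0.417% of all genes), 0 with the leukocyte covariate, 0 with the 2 ages alone and 0 with the replicate block. It was 2 at the study's threshold, for which the share of all genes was not counted at this step. With a mouse left out it was 0 to 9. The 9 came without the third 10-week mouse, where 2908 of 16868 genes were called lower. Without the third 8-week mouse it was 8, where 1632 of 16891 genes were. The 10 against 8 week count was 5 for library totals (489 of 16554 genes) and 5 for no filter (915 of 22813). Wherever this count was 0, 0 genes of the whole table were called lower at that step. At 8 against 6 weeks, 0 became 1 without the first 8-week mouse, where 73 of 16870 genes were called lower. Leaving out other mice gave 0. Leaving out a mouse kept the 10 against 6 week count at 9 to 10, where 2098 to 4286 genes of the whole table were called lower. The cause of these moves was not tested. Deviations of mice with the same replicate number had mean correlations of -0.34 to 0.29 over the 6 comparisons, with no comparison having all 3 pairs over 0.1. At 8 against 6 weeks 2 of the 3 were over 0.1 (0.509 and 0.489). With 3 mice per age these values cannot exclude a preparation or batch shared by replicate number. The block changed no count but that of 10 against 8 weeks. Genome-wide, genes called lower at 12 against 4 weeks were 4501, but 1820 with library totals, 121 with endocrine scaling and 3 with the leukocyte covariate. All 9 neighbouring levels also differed by RPKM. RPKM and TPM share the same counts and gene lengths, so this is no separate check of the order. No other gene lengths were tried. Every factor had 1140 or more counts in each mouse, and each age had 3 mice.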
